A study of Homo sapiens with 40 samples.

Results

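Among the 58395 genes counted in WT and PARP1-KO HEK293A cells, 7 protein-coding genes were singled out for near on/off differences between the genotypes across the 5 treatments. These are DEPP1, PKP3, SPINT1, HTRA1 and HSD17B11, which were lower in the knockout, and KRT75 and ELAVL2, which were higher. Other genes also lay apart between the genotypes, and their shares are given below. The 7 genes were chosen on the measured difference between PARP1-KO and WT cells, so that difference is described below without a test. All 7 were among the 28922 genes that were tested, those counted at least 10 times in total.

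HEK293A is an adherent line of human embryonic kidney cells. The study compared WT cells with PARP1-KO cells, which the labels also call a PARP1 knockdown and which are 1 clone, 1A3, with a CRISPR/Cas9 deletion of exons 3 to 5 on both alleles. PARP1 is the main enzyme that marks DNA breaks with poly(ADP-ribose). Each genotype had 5 groups of 4 libraries, and the labels call the 4 replicates biological while the methods call them technical in 1 place, so the spread between them may be technical. Since there is 1 knockout clone, the effect of the deletion and the history of the clone cannot be told apart. WT cells received no treatment, 0.1% DMSO, topotecan (Tpc, a poison of topoisomerase 1) at 100 nM with 0.1% DMSO, OL9-119 (an inhibitor of the repair enzyme TDP1) at 5 µM in 0.1% DMSO, or Tpc at 100 nM together with OL9-119 at 5 µM. PARP1-KO cells received the same, but with Tpc at 50 nM. Cells were lysed after 5 to 5.5 h.

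The 7 genes belong to different systems. Epithelial cells hold together through desmosomes, plaques that tie cadherins of the cell surface to keratin filaments, and plakophilin 3 (PKP3) is a plaque protein while keratin 75 (KRT75) is a type II keratin best known from hair follicles. At the cell surface, SPINT1 (HAI-1) inhibits serine proteases such as matriptase and the activator of hepatocyte growth factor, and HTRA1 is a secreted serine protease that cuts extracellular matrix proteins and acts on TGF-beta signalling. DEPP1 is induced by FOXO transcription factors and is linked to autophagy. HSD17B11 is a short-chain dehydrogenase that sits on lipid droplets, and ELAVL2 (HuB) is an RNA-binding protein typical of neurons.

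Total counts per library ranged from 3455043 to 20379777. In 9 libraries fewer than 19000 genes had a count. They were 8 WT libraries (untreated replicates 1 and 3, DMSO replicates 2 and 3, Tpc replicate 2, OL9-119 replicate 2, and Tpc + OL9-119 replicates 1 and 2), with 16029 to 18052 genes, and untreated PARP1-KO replicate 1, with 18730. The other 31 libraries had 19241 to 26531. Depth did not separate these WT libraries, which had 8841711 to 14398670 counts against 3455043 to 14292607 in the other 12. Some responses, genotype differences and list results are given with and without the 9 libraries. Results for neighbouring genes, chromosomes, genes of like pattern and correlations between members are given with all libraries only. PARP1 itself ranged from 737 to 887 CPM (counts scaled to a common library size) in the 20 WT libraries and from 30.4 to 46.6 CPM in the 20 PARP1-KO libraries, from counts over the whole gene. Of 9 genes expressed in HEK293 cells, 7 had a median above 1 CPM in both genotypes, and PAX8 and INA did not. Of 5 markers of fibroblasts, 4 did (COL1A1, COL3A1, PDGFRB and LUM, but not DCN), at medians of up to 24.9 CPM, while PTPRC, CD3E, HBB and APOA1, markers of blood cells and hepatocytes, had medians of 0, and the part of these transcripts in the results was not tested.

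The promoters of 6 of the 7 genes were found in RefSeq (GRCh38.p14), each as 300 bases that begin 250 bases before a transcription start, with 12 starts in all, of which ELAVL2 has 6. PKP3 was not among them. Stretches ahead of any annotated exon are shown for 4 genes that differ in composition, 2 lower in PARP1-KO cells (DEPP1 and SPINT1) and 2 higher (KRT75 and ELAVL2). They are written 5′ to 3′ on the strand of the gene, and capitals mark the motifs searched for on both strands. These were the TATA box, spelled TATAAA, the CCAAT box, spelled by its name, the GC box, spelled GGGCGG, and the core of forkhead sites, spelled GTAAACA. A motif on the other strand appears as its reverse complement, and in the stretches shown no motifs overlap. The stretches are chr10:44978810-44979059 (minus strand) for DEPP1, chr15:40843798-40844017 (plus) for SPINT1, chr12:52434372-52434621 (minus) for KRT75, and chr9:23826338-23826490 (minus) for the outermost start of ELAVL2.
DEPP1: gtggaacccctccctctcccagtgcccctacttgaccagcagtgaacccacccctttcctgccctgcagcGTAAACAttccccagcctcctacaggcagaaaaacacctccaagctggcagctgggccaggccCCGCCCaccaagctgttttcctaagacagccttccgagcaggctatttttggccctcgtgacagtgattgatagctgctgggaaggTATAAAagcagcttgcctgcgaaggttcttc
SPINT1: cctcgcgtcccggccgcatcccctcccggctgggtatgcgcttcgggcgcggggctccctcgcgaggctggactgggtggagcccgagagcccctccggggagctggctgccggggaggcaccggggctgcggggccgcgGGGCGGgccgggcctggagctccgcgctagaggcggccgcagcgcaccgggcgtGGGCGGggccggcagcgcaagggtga
KRT75: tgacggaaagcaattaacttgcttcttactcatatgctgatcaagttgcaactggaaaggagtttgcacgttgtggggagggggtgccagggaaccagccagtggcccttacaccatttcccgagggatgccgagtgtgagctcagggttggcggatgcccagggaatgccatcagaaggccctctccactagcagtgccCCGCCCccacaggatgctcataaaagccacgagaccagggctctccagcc
ELAVL2: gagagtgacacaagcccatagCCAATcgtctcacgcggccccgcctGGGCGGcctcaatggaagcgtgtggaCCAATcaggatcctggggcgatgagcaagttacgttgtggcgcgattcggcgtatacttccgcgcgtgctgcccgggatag

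DEPP1 held TATAAA 31 bases before its start and GTAAACA 180 bases before it, on the sense strand. The outermost start of ELAVL2 has a TATA box 32 bases before it, in a part that overlaps an annotated exon and is not shown. Of 35116 RefSeq promoters of the same length, 11.5% held the TATA box, 34.6% the CCAAT box, 45.0% the GC box and 3.42% the forkhead core, on either strand. The GC box was in the promoters of DEPP1, HTRA1 and KRT75, at the outermost of 2 starts of SPINT1 and at 5 of the 6 of ELAVL2, but not in that of HSD17B11. The observed-to-expected ratio of CpG was 0.25 for DEPP1 and 0.319 for KRT75, below the median of 0.579 over all promoters. It was 0.787 for HSD17B11, 0.846 for the outermost start of SPINT1, 0.960 for HTRA1, and 0.725 to 0.965 over the 6 starts of ELAVL2. The composition thus did not follow the direction, since both the lower and the higher genes included promoters poor and rich in CpG.

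In every treatment the 4 PARP1-KO and the 4 WT libraries did not overlap in CPM for any of the 7 genes, and neither did the 20 PARP1-KO and 20 WT libraries pooled over treatments. The same necessarily held without the 9 libraries with few detected genes, since ranges that lie apart stay apart in any part of the libraries. CPM here are counts scaled by TMM-normalized library sizes. For reference, ranges of 4 against 4 libraries did not overlap, with PARP1-KO higher, for 11.3% of the tested genes in untreated cells, 12.3% in DMSO, 10.5% in Tpc, 12.7% in OL9-119 and 10.9% in Tpc + OL9-119. With PARP1-KO lower, these shares were 8.37%, 7.76%, 9.3%, 10.9% and 7.29% in the same order. Over all libraries, 1.59% of the genes lay wholly higher and 1.56% wholly lower in PARP1-KO cells. Nothing can be read from the members' count against these shares, because the genes were selected for the difference.

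**Figure D1:**
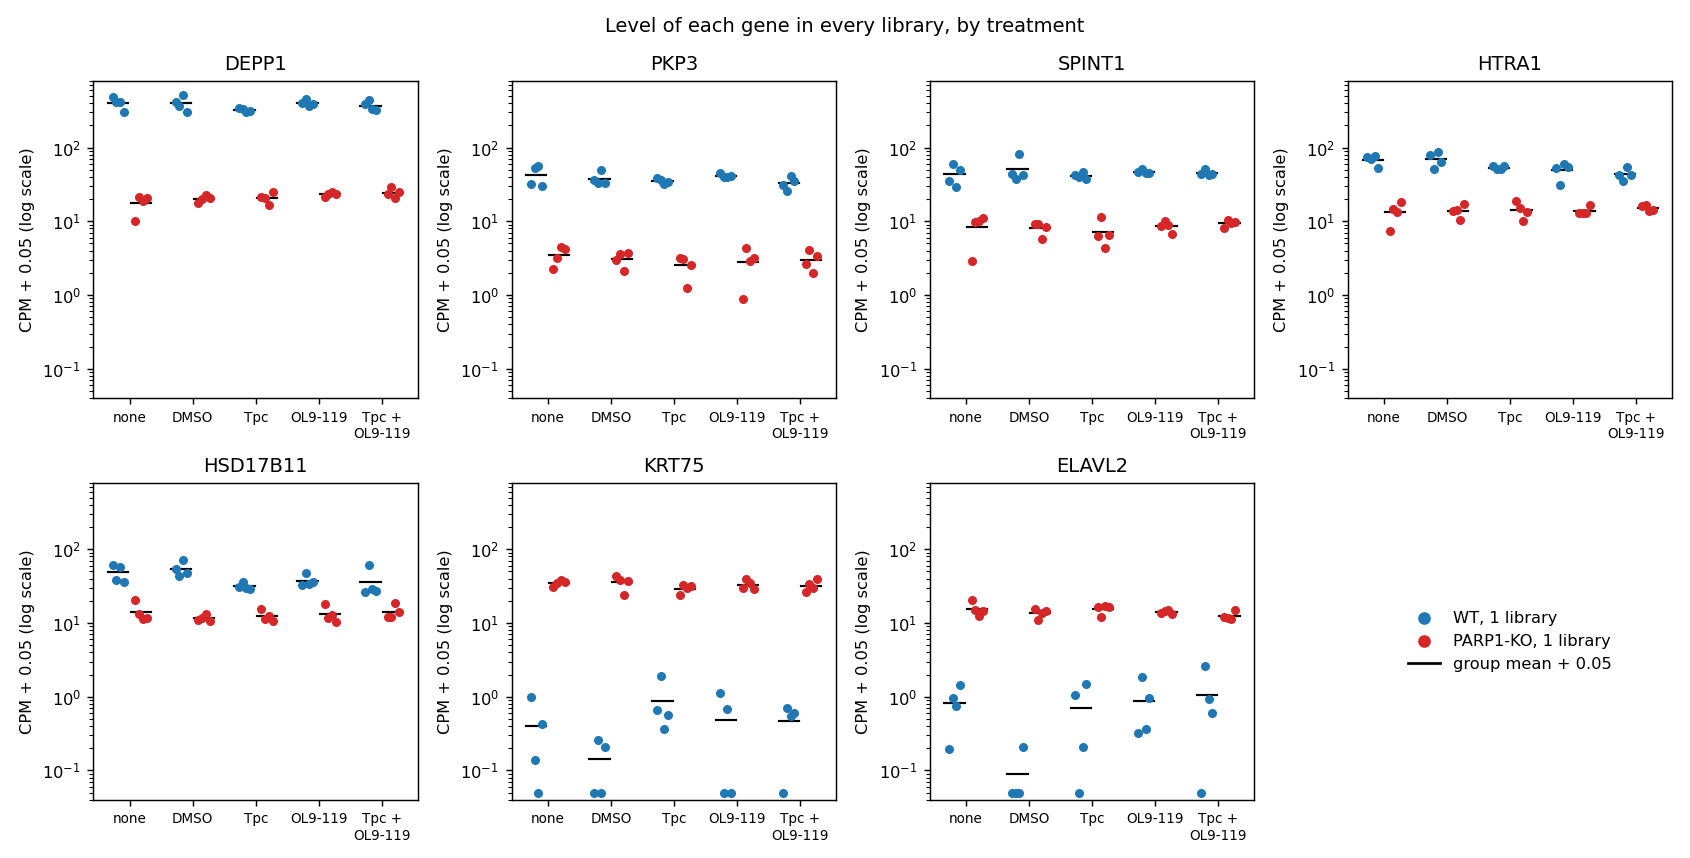
Level of each gene in every library, as CPM + 0.05 on a logarithmic axis, by treatment; each point is 1 library (blue WT, red PARP1-KO) and each bar the mean of 4. For DEPP1, PKP3, SPINT1, HTRA1 and HSD17B11 all blue points lie above all red points, and for KRT75 and ELAVL2 all red points lie above all blue points, of which 6 and 5 are at 0 counts and drawn at 0.05.

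DEPP1 (ENSG00000165507, chr10:44970981-44978809, minus strand, hg38) was the most abundant of the 7 in WT cells. It ranged from 302 to 512 CPM over the 20 WT libraries (median 374) and from 10.0 to 28.8 CPM over the 20 PARP1-KO libraries (median 21.3). Without treatment the 4 WT libraries had 479, 410, 417 and 309 CPM. The 4 untreated PARP1-KO libraries had 10.0, 21.6, 18.5 and 20.4 CPM. Replicate 1 was the low one here and the lowest PARP1-KO library of all, and without it the mean of the untreated PARP1-KO group was 20.2 ± 1.55 CPM (SD, n = 3) in place of 17.6 ± 5.23 (SD, n = 4). The WT mean exceeded the PARP1-KO mean by 22.9-fold without treatment (log2 fold change -4.49 ± 0.17, SE) and by 15.2-fold with Tpc + OL9-119 (-3.93 ± 0.16), the ends of the range over the 5 treatments. DEPP1 shares 695 of its 2979 exon bases with RASSF4 on the opposite strand, and which strand the authors counted is not stated. RASSF4, which encodes a Ras-association domain protein, was itself lower in PARP1-KO cells, at 2.66 ± 1.02 CPM against 8.42 ± 3.24 in WT cells with DMSO (SD, n = 4; log2 fold change -1.67 ± 0.40, edgeR adjusted p = 0.00121).

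PKP3 (ENSG00000184363, chr11:392614-404908, plus strand) had a median of 36.8 CPM in WT cells, with a lowest library at 25.8 and a highest at 55.6. In PARP1-KO cells the median was 3.07 CPM, with libraries between 0.834 and 4.42. With DMSO the WT libraries had 36.8, 32.8, 49.0 and 33.4 CPM and the PARP1-KO libraries 2.97, 3.60, 2.06 and 3.61. The ranges lay far apart, as the lowest WT library was 5.84-fold above the highest PARP1-KO library. The lowest value, in OL9-119 replicate 1, rested on 7 counts. The ratio of the means was between 11.2 with Tpc + OL9-119 and 14.9 with OL9-119, and the fitted log2 fold changes lay between -3.84 ± 0.29 and -3.46 ± 0.28. No annotated gene overlaps PKP3.

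SPINT1 (ENSG00000166145, chr15:40844018-40858207, plus strand) was at 43.9 CPM in the median WT library, from 29.3 to 82.9, and at 8.93 CPM in the median PARP1-KO library, from 2.82 to 11.5. Without treatment the WT libraries had 35.3, 60.2, 29.3 and 50.1 CPM. The untreated PARP1-KO libraries had 2.82, 9.59, 9.92 and 10.9 CPM, and again replicate 1 was the lowest of all 20. With DMSO the WT libraries had 43.3, 38.0, 82.9 and 42.9 CPM, so that 1 library raised the mean from 41.4 to 51.8 CPM. The ratio of the means was smallest with Tpc + OL9-119 (4.82) and largest with DMSO (6.42). Since the library at 82.9 CPM raised the ratio with DMSO, no order of the treatments is read from these ratios. Omission of single libraries moved the log2 fold change with DMSO from -2.67 to between -2.80 and -2.35. SPINT1 shares 100 exon bases with SPINT1-AS1 on the opposite strand, which had 342 counts in all libraries together.

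HTRA1 (ENSG00000166033, chr10:122458551-122514907, plus strand) ranged from 30.6 to 86.3 CPM in WT cells (median 54.8) and from 7.37 to 19.0 CPM in PARP1-KO cells (median 13.9). Its group means stayed between 13.39 and 15.01 CPM in PARP1-KO cells. In WT cells they ran from 43.8 CPM with Tpc + OL9-119 to 70.2 CPM with DMSO, and the ratio of the means accordingly fell from 5.11 without treatment to 2.92 with Tpc + OL9-119. In that last group the WT libraries had 42.5, 34.9, 55.0 and 42.8 CPM. The corresponding PARP1-KO libraries had 15.9, 16.5, 13.7 and 14.01 CPM. The 2 groups did not overlap, but over all libraries the lowest WT value was only 1.61-fold above the highest PARP1-KO value. HTRA1 shares 159 exon bases with a long non-coding RNA on the opposite strand, ENSG00000285955, which was not analysed here.

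HSD17B11 (ENSG00000198189, chr4:87336515-87391188, minus strand) showed the smallest difference. WT libraries lay between 26.3 and 72.6 CPM (median 35.7) and PARP1-KO libraries between 10.3 and 20.2 (median 11.9), a gap of 1.30-fold between the nearest libraries of the genotypes. With Tpc the WT libraries had 30.4, 35.55, 29.9 and 29.1 CPM and the PARP1-KO libraries 15.6, 11.2, 12.3 and 10.5. The highest PARP1-KO value, 20.2 CPM, came from untreated replicate 1. Without that library the mean of the untreated PARP1-KO group was 12.1 ± 1.06 CPM (SD, n = 3) and with it 14.2 ± 4.13 (SD, n = 4). The ratio of the means ran from 2.52 with Tpc to 4.66 with DMSO (log2 fold changes -1.33 ± 0.23 and -2.22 ± 0.23). With Tpc + OL9-119 the ratio was also 2.52, but WT replicate 2 weighed on it. The WT mean of that group was 35.7 CPM with and 27.4 CPM without that library. Omission of single libraries moved the log2 fold change with Tpc + OL9-119 from -1.34 to between -1.49 and -0.95. Before scaling for depth the genotypes overlapped with Tpc + OL9-119, at 100 to 561 counts in WT and 135 to 182 in PARP1-KO libraries. HSD17B11 shares exon bases with the non-coding ENSG00000255723 on the same strand and spans RN7SL681P, and both had 0 counts.

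KRT75 (ENSG00000170454, chr12:52424070-52434371, minus strand) was counted 198 to 703 times per PARP1-KO library, or 23.6 to 43.2 CPM with a median of 32.9. In the 20 WT libraries it was counted 89 times in all. The untreated WT libraries had 13, 1, 0 and 3 counts, those with DMSO 0, 2, 0 and 1, those with Tpc 8, 21, 2 and 4, those with OL9-119 16, 0, 6 and 0, and those with Tpc + OL9-119 0, 6, 4 and 2. Libraries of 1 WT group thus differed widely, from 2 to 21 counts with Tpc and from 0 to 16 with OL9-119, and 6 of 20 had none. With DMSO the normalized summed counts of PARP1-KO cells exceeded those of WT cells 462-fold, with a 95% interval of 158 to 2241 that covers counting error only and rests on 3 WT counts. With Tpc the ratio was 32.3, with an interval of 23.1 to 46.6. The fitted log2 fold change with Tpc rose from 5.03 ± 0.43 to 5.82 without WT replicate 2, the library with 21 counts. Without treatment it rose from 6.47 ± 0.47 to 7.88 without WT replicate 1, the library with 13. With OL9-119 the WT mean was 0.43 CPM with and 0.21 CPM without replicate 1. KRT75 shares 221 exon bases with the non-coding ENSG00000257500 on the opposite strand, which had 0 counts.

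ELAVL2 (ENSG00000107105, chr9:23690104-23826337, minus strand) was counted 110 to 298 times per PARP1-KO library, or 10.9 to 20.5 CPM with a median of 14.3. WT libraries held far fewer, which were 2, 10, 7 and 11 without treatment, 0, 0, 0 and 1 with DMSO, 13, 0, 1 and 11 with Tpc, 4, 17, 3 and 9 with OL9-119, and 0, 24, 7 and 2 with Tpc + OL9-119. Only the DMSO group was at or near 0 in each of its 4 libraries. The ratio of normalized summed counts was 12.7 with Tpc + OL9-119 (95% interval of counting error 8.92 to 18.6), 18.4 with OL9-119, 21.0 without treatment and 23.3 with Tpc. With DMSO it was 506, but it rests on 1 WT count and its interval runs from 90.6 to 20032. Single WT libraries weigh on these ratios, since the WT mean was 1.00 CPM with and 0.47 CPM without Tpc + OL9-119 replicate 2 (24 of 33 counts), 0.64 and 0.39 CPM with and without Tpc replicate 4, and 0.82 and 0.50 CPM with and without OL9-119 replicate 2, so no order of the treatments is read from them. No annotated gene overlaps ELAVL2.

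**Figure D2:**
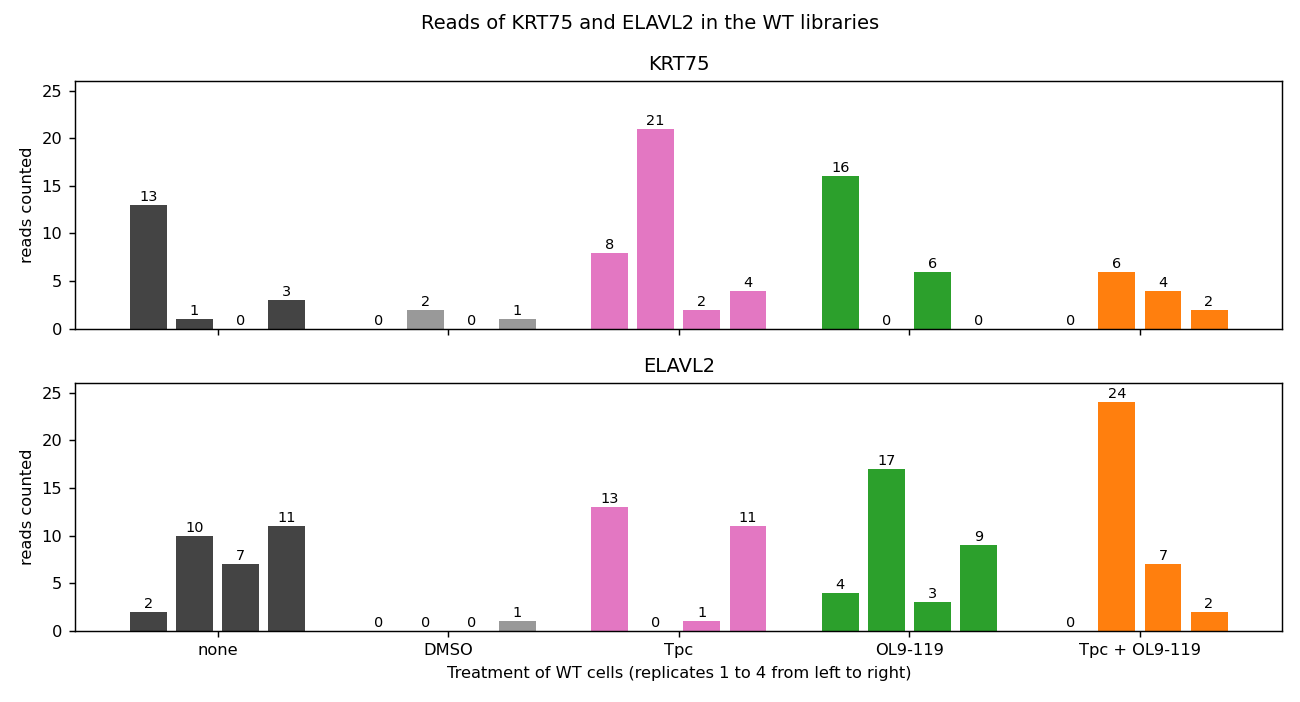
Reads counted for KRT75 and ELAVL2 in each of the 20 WT libraries, with replicates 1 to 4 from left to right within a treatment. The highest bars are 21 counts of KRT75 in Tpc replicate 2 and 24 counts of ELAVL2 in Tpc + OL9-119 replicate 2, both libraries with few detected genes, and 3 libraries held no read of either gene.

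In PARP1-KO cells KRT75 was counted more often than ELAVL2 in 20 of 20 libraries, with a ratio of 1.43 to 3.52 per library. In WT cells it was counted more often in 6 of 20, and the ratio of the sums was 0.730 against 2.42 in PARP1-KO cells. Of the 8 WT libraries with few detected genes, 4 had no KRT75 read and 4 no ELAVL2 read, against 2 and 1 of the other 12. The highest WT counts of both genes also came from libraries with few detected genes.

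Compared per kilobase of exon, DEPP1 had the highest level in WT cells, at a median of 125.6 CPM per kb. It was followed by HTRA1 (24.4), HSD17B11 (15.3), SPINT1 (12.4) and PKP3 (9.69), and then by KRT75 (0.158) and ELAVL2 (0.0844). The lowest DEPP1 library (101.5 CPM per kb) lay above the highest HTRA1 library (38.4), while neighbours from HTRA1 to PKP3 in this order overlapped, as did KRT75 and ELAVL2. In PARP1-KO cells the order was KRT75 (15.2), DEPP1 (7.16), HTRA1 (6.17), HSD17B11 (5.11), ELAVL2 (2.78), SPINT1 (2.52) and PKP3 (0.809). There KRT75 stood above all others, from 10.9 CPM per kb upward, and DEPP1, HTRA1 and HSD17B11 overlapped, as did ELAVL2 and SPINT1, and SPINT1 and PKP3.

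The low level as a share of the high level separated the genes. It was 4.37 to 6.57% over the 5 treatments for DEPP1 and 6.70 to 8.94% for PKP3. For KRT75 it was 0.257 to 2.82% and for ELAVL2 0.287 to 8.06%. The description of the genes as switched on or off thus held less well for the others, since PARP1-KO cells kept 15.6 to 20.7% of the WT level of SPINT1, 19.6 to 34.2% of HTRA1 and 21.4 to 39.7% of HSD17B11. Among 16333 genes whose mean count reached 10 in at least 1 genotype, 169 were lower in PARP1-KO cells in every treatment by at least the smallest log2 fold change of these 5 genes (1.33), and 13 were higher in every treatment by at least that of KRT75 and ELAVL2 (3.59), the members included. The library names carry 1 of 3 prefixes, whose meaning is not stated, and both genotypes had libraries under each. Within each prefix the 2 genotypes did not overlap for any of the 7 genes. This is no separate check, since the genotypes already lay apart over all libraries.

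**Figure D3:**
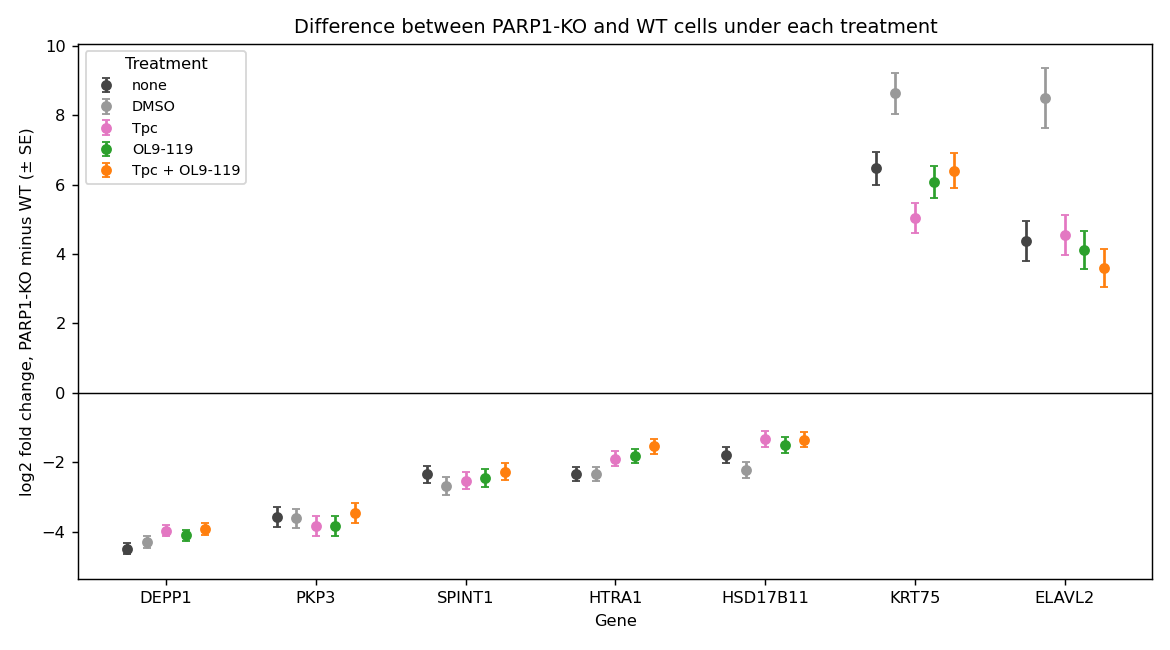
Fitted log2 fold change between PARP1-KO and WT cells (PARP1-KO minus WT) for each gene and treatment, with bars of 1 SE from 4 libraries per group. DEPP1 and PKP3 lie between -4.49 and -3.46, SPINT1, HTRA1 and HSD17B11 between -2.67 and -1.33, and KRT75 and ELAVL2 between 3.59 and 8.63, with the highest values of both under DMSO.

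The 7 genes were not selected on their responses to the compounds, although the groups compared were also used in the selection. Responses were tested with edgeR, each treatment against no treatment within a genotype. No member passed an adjusted p of 0.01 in any of the 8 responses. In WT cells the share of all tested genes that passed was 0% for DMSO, 0.857% for Tpc, 1.28% for OL9-119 and 4.07% for Tpc + OL9-119. In PARP1-KO cells it was 0% for DMSO, 0.0138% for Tpc, 0.00346% for OL9-119 and 0% for Tpc + OL9-119. DESeq2 called no member either. Where edgeR called 0 genes, an unadjusted p below 0.05 was found for 3116 genes with DMSO in WT cells, and in PARP1-KO cells for 538 with DMSO and 1241 with the combination, and DESeq2 called 9, 0 and 1. Without the 9 libraries with few detected genes no member passed either, while over all genes 9 were higher and 75 lower with Tpc in PARP1-KO cells, in place of 4 in all, and 253 higher and 195 lower with Tpc + OL9-119 in WT cells, in place of 1177 in all. The last comparison lacks untreated WT replicates 1 and 3 and WT Tpc + OL9-119 replicates 1 and 2. The part of the smaller number of libraries in these counts was not tested.

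In WT cells the members closest to the threshold were lower with treatment. HTRA1 fell short of it with Tpc + OL9-119, at 43.8 ± 8.34 CPM against 68.4 ± 10.5 without treatment (SD, n = 4; log2 fold change -0.64 ± 0.20, edgeR adjusted p = 0.0296). With OL9-119 alone it was at 49.2 ± 12.9 CPM (-0.48 ± 0.20, adjusted p = 0.198). HSD17B11 was at 31.2 ± 2.92 CPM with Tpc against 48.4 ± 12.9 without treatment (-0.63 ± 0.22, adjusted p = 0.124), and its 4 Tpc libraries, up to 35.55 CPM, lay just below its 4 untreated libraries, from 35.85. DEPP1 was at 325 ± 17.6 CPM with Tpc against 404 ± 70.6 (-0.31 ± 0.14, adjusted p = 0.280). All 4 of these differences shrank without the libraries with few detected genes, to -0.33 for HTRA1 with Tpc + OL9-119, -0.15 for HTRA1 with OL9-119, -0.32 for HSD17B11 and -0.16 for DEPP1. Every WT group then holds fewer libraries.

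ELAVL2 had the largest fitted change with DMSO in WT cells, from 30 to 1 summed counts (-4.30 ± 1.11, edgeR adjusted p = 0.226). KRT75 went from 17 to 3 summed counts (-2.14 ± 0.98, adjusted p = 0.424), but without untreated replicate 1, which held 13 of the 17, the log2 fold change was -0.72. Neither passed the threshold, and at these counts a smaller response could not have been detected. In PARP1-KO cells, where both genes were counted more than 100 times per library, ELAVL2 was at 13.6 ± 2.02 CPM with DMSO against 15.6 ± 3.48 without treatment, and KRT75 at 35.7 ± 8.23 against 35.2 ± 3.21 (SD, n = 4). In PARP1-KO cells DEPP1 had the smallest unadjusted p (edgeR, 0.00630 with Tpc + OL9-119 and 0.0219 with OL9-119). It was at 24.4 ± 3.52 CPM with Tpc + OL9-119 and 23.3 ± 1.29 with OL9-119 against 17.6 ± 5.23 without treatment. The log2 fold changes were 0.44 ± 0.16 and 0.37 ± 0.16 (adjusted p = 1 for both), and 0.27 and 0.21 without the 9 libraries. By adjusted p, PKP3 with Tpc came nearest (-0.51 ± 0.29, edgeR adjusted p = 0.851). Without the 9 libraries, SPINT1 (-0.49 ± 0.19, edgeR adjusted p = 0.261) and PKP3 (-0.64 ± 0.27, adjusted p = 0.329) with Tpc came nearest.

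**Figure D4:**
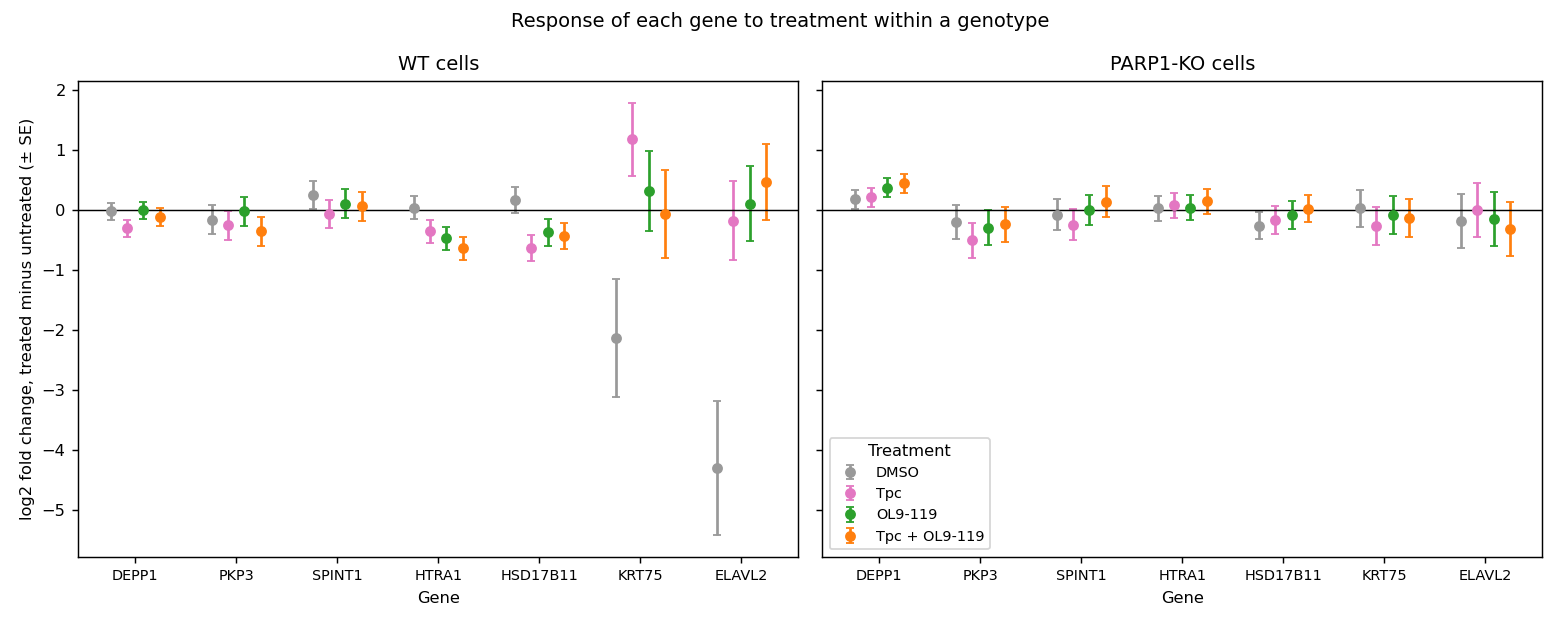
Fitted log2 fold change of each gene with treatment against no treatment, in WT cells (left) and PARP1-KO cells (right), with bars of 1 SE from 4 libraries per group. No point passed the adjusted threshold; ELAVL2 with DMSO in WT cells, at -4.30, lies farthest from 0, and all points of PARP1-KO cells lie within 0.51 of it.

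The difference of a response between the genotypes was tested for Tpc, OL9-119 and their combination, and 0 of 21 tests passed. This quantity equals the genotype difference with treatment minus that without treatment. The genes were chosen on those genotype differences, so nothing can be read about the members from this count. Of all tested genes 0.1% passed for Tpc, 0.0657% for OL9-119 and 0.27% for Tpc + OL9-119, and for Tpc the genotypes also differ in dose. For DEPP1, HTRA1 and HSD17B11 the log2 fold change of PARP1-KO cells exceeded that of WT cells in 9 of 9 comparisons, which share the untreated libraries and so are not independent, and these 3 genes were picked for this direction after their values were seen. Of all 7 members, 3 lay below 0 for Tpc, 4 for OL9-119 and 2 for Tpc + OL9-119. The difference was 0.79 ± 0.29 for HTRA1 and 0.56 ± 0.21 for DEPP1 with Tpc + OL9-119 (edgeR adjusted p = 0.253 and 0.276). Without the 9 libraries it was 0.30 and 0.41. KRT75 was at -1.44 ± 0.69 with Tpc (adjusted p = 0.652), where the WT side held 17 and 35 counts. Of the 77 tests of members, responses and differences together, 12 had an unadjusted p below 0.05 with edgeR and 13 with DESeq2.

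The genes beside each member were examined in the comparison of PARP1-KO with WT cells, which did not choose them. Of 164 tested genes within 500 kb of a member, 5 were higher and 19 lower with DMSO, and 4 were higher and 17 lower without treatment. Over all tested genes, 6.67% were higher and 5.75% lower with DMSO, and 5.97% and 5.74% without treatment. PKP3 accounted for most of the lower neighbours, with 14 of 55 lower and 1 higher with DMSO, and 12 lower and 0 higher without treatment. The 40 of its neighbours with a mean of at least 10 counts had a median log2 fold change of -0.56. The median of all 872 such genes on chromosome 11 was -0.49, and 672 of them were below 0, against a median of 0.03 over the whole genome. Chromosome 4, which carries HSD17B11, had a median of -0.40, while chromosomes 9, 10, 12 and 15, which carry the other members, lay between -0.10 and 0.15.

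Most of the nearest genes that averaged at least 10 counts in the 40 libraries did not pass the test. At PKP3 these were B4GALNT4 (10.5 kb away, -0.30 ± 0.19, edgeR adjusted p = 0.264) and SIGIRR (0.808 kb, 0.40 ± 0.33, adjusted p = 0.407), while ANO9, chosen here after its value was seen, was lower by a similar amount to PKP3 (-3.56 ± 0.71, adjusted p = 9.82e-05). At SPINT1 neither ZFYVE19 (0.19 ± 0.19) nor RHOV (-0.11 ± 0.30) passed, although CHAC1, also chosen after its value was seen, was higher (3.29 ± 0.43, adjusted p = 2.75e-08). At HTRA1, PLEKHA1 lay 26.2 kb away, and with DMSO it was at 74.4 ± 7.13 CPM in the knockout against 75.5 ± 8.93 in WT, and CUZD1 was at 0.83 ± 0.43 (adjusted p = 0.175). At HSD17B11, NUDT9 was lower with DMSO (31.4 kb, -0.69 ± 0.20, adjusted p = 0.00729) but did not pass without treatment (-0.47 ± 0.19, adjusted p = 0.0860), and KLHL8 did not pass with DMSO (-0.35 ± 0.17, adjusted p = 0.138). At DEPP1, CXCL12 (584 kb, 0.10 ± 0.56) and ALOX5 (-0.39 ± 0.46) did not pass, and neither did ZNF22, named after its value was seen, whose start lies 22.1 kb from that of DEPP1 (-2.59 ± 1.22, adjusted p = 0.129). At KRT75, the keratin genes KRT80 (232 kb, 0.77 ± 0.43, adjusted p = 0.204) and KRT8 (463 kb, -0.38 ± 0.11, adjusted p = 0.00725) lay on either side, and of these only KRT8 passed. Within 500 kb of KRT75, NR4A1, also chosen after its value was seen, was higher (1.96 ± 0.27, adjusted p = 8.06e-08). ELAVL2 had 1 tested gene within 500 kb, with a mean below 10 counts.

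**Figure D5:**
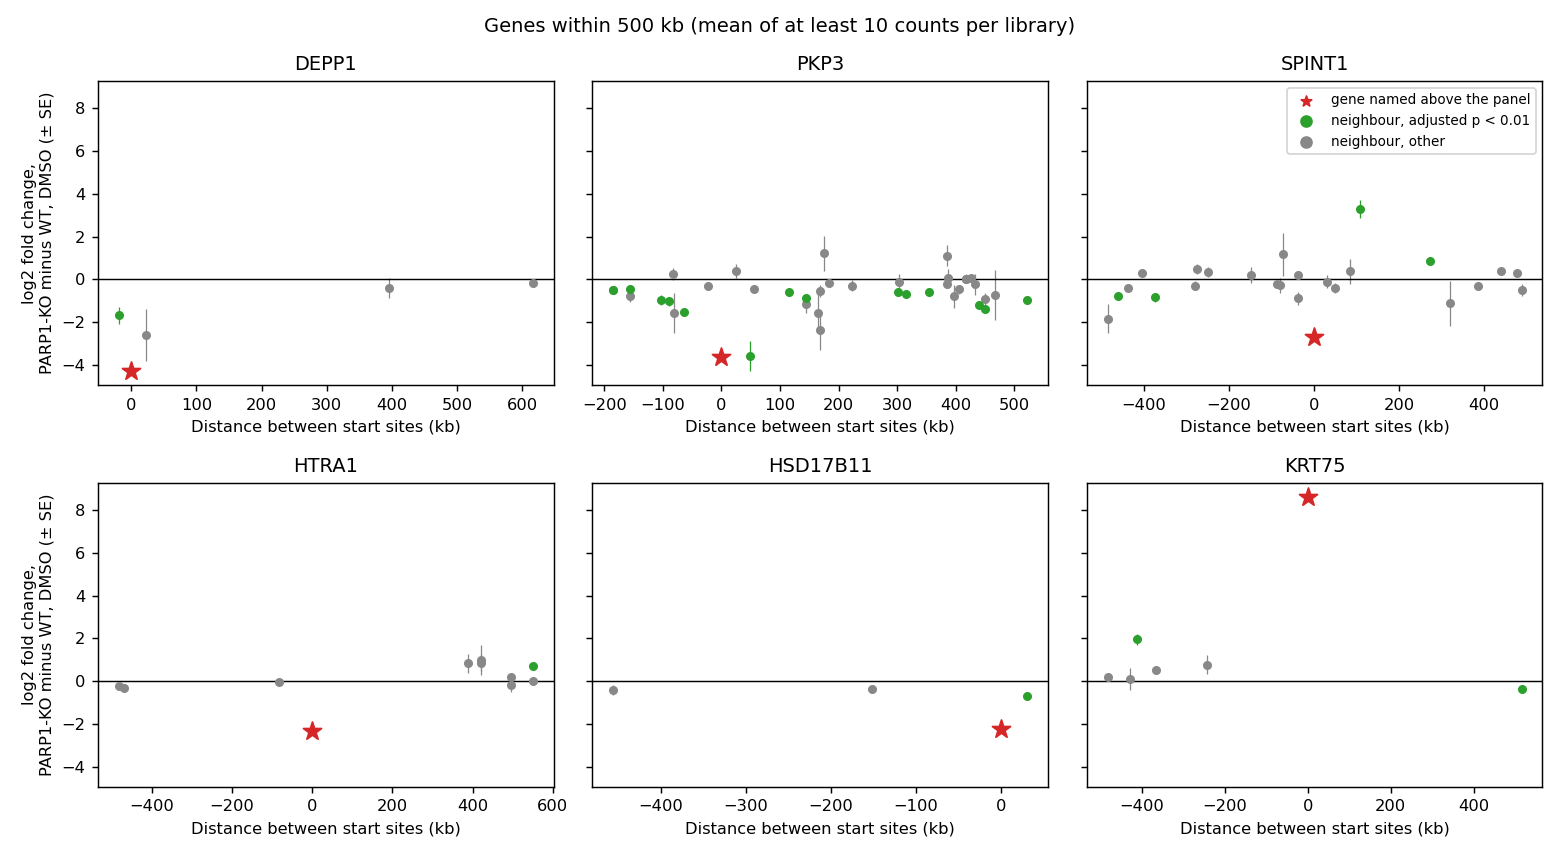
Log2 fold change with DMSO (PARP1-KO minus WT, bars of 1 SE) of genes within 500 kb of each member with a mean of at least 10 counts in the DMSO libraries, against the distance between transcription starts; the star is the member and green points passed an adjusted p of 0.01. All green points near PKP3 lie below 0, while near the other members green points are few and lie on both sides; ELAVL2 had no such neighbour and is not drawn.

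Genes that share a role with the members were listed and read from the same fit, with median log2 fold changes beside that of all tested genes, 0.19 with DMSO. Of 12 tested desmosome genes none passed with DMSO or without treatment (median 0.00 with DMSO), with PKP4 at -0.35 ± 0.13 (adjusted p = 0.0527) and PERP at -0.35 ± 0.12 (adjusted p = 0.0304). Without the 9 libraries with few detected genes, 2 passed and were lower, which were DSP (-0.37) and PERP (-0.41) with DMSO, and DSP (-0.65) and DSG2 (-0.48) without treatment. Of 15 tested genes among the type II keratins and KRT18, 2 were lower with DMSO and none higher (median 0.63). These were KRT18, the partner of KRT8 in simple epithelia, at 243 ± 19.2 CPM against 405 ± 54.8 (-0.74 ± 0.11, adjusted p = 1.06e-06), and KRT8. KRT18 also passed without the 9 libraries (-0.75), and KRT8 did not.

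Of 12 tested genes of pericellular proteolysis and HGF signalling, 1 passed with DMSO (median of the list -1.16), HGF itself (3.98 ± 1.16, adjusted p = 0.00887), at 0.0569 and 1.00 CPM, and it did not pass without treatment (0.72 ± 0.89, adjusted p = 0.618). The protease PRSS8 was at -1.56 ± 0.56 (adjusted p = 0.0388) and MST1 at -1.58 ± 0.93 (adjusted p = 0.227). HGF did not pass without the 9 libraries, and PRSS8 did (-1.49 ± 0.43, adjusted p = 0.00625). Of 13 tested genes of the HTRA family and of TGF-beta signalling, 4 were lower and 0 higher with DMSO (median -0.12), and the counts without treatment were the same. With DMSO they were HTRA3, a secreted paralogue of HTRA1, at 5.65 ± 0.62 CPM against 19.9 ± 5.49 (-1.82 ± 0.27, adjusted p = 4.33e-07), the BMP receptor BMPR1A (-0.81 ± 0.16, adjusted p = 8.57e-05), the inhibitor SMAD7 (-0.76 ± 0.16, adjusted p = 3.55e-04) and TGFB1 (-0.61 ± 0.17, adjusted p = 0.00506). The receptor BMPR2 passed in addition without treatment when the 9 libraries were left out (-0.64).

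Of 15 tested genes for 17-beta-hydroxysteroid dehydrogenases and lipid droplet proteins, 1 was higher and 2 lower with DMSO (median 0.00). PLIN2, which coats lipid droplets, was at 48.9 ± 4.77 CPM against 9.70 ± 4.07 (2.31 ± 0.23, adjusted p = 8.98e-12), opposite in direction to HSD17B11. The lower ones were HSD17B12, of fatty acid elongation (-0.94 ± 0.14, adjusted p = 7.44e-07), and the mitochondrial HSD17B10 (-0.68 ± 0.15, adjusted p = 5.49e-04), while HSD17B1 was at 1.03 ± 0.77 (adjusted p = 0.356). HSD17B6 (1.42 ± 0.28) and PLIN4 (1.37 ± 0.38) also passed and were higher when the 9 libraries were left out. Of 13 tested neuronal RNA-binding proteins none passed with DMSO (median 0.31), with ELAVL3 at 0.98 ± 0.46 (adjusted p = 0.131) and RBFOX3 at -1.27 ± 0.85 (adjusted p = 0.292). Without treatment 1 passed, the ubiquitous paralogue ELAVL1 (0.38 ± 0.10, adjusted p = 0.00517). Without the 9 libraries ELAVL3 passed with DMSO (1.57 ± 0.38, adjusted p = 8.31e-04) and without treatment (2.01 ± 0.39, adjusted p = 5.62e-05). ELAVL1 then did not pass.

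Of 19 tested FOXO factors and FOXO targets, 5 were higher and 3 lower with DMSO (median log2 fold change 0.37), and 6 and 3 without treatment. The higher ones with DMSO were the transcription factor KLF6 at 169 ± 9.69 CPM against 57.0 ± 7.91 (1.56 ± 0.12, adjusted p = 1.18e-15), the pro-apoptotic BBC3 (1.37 ± 0.18, adjusted p = 3.04e-08), the coactivator CITED2 (1.30 ± 0.13), the insulin receptor substrate IRS2 (0.84 ± 0.12) and the autophagy gene GABARAPL1 (0.60 ± 0.11). The lower ones were catalase, CAT (-0.88 ± 0.14), the mitochondrial kinase PINK1 (-0.78 ± 0.14) and SESN3 (-0.60 ± 0.16). Without treatment KLF6, BBC3, CITED2 and IRS2 were again higher, together with the insulin receptor INSR (0.70 ± 0.14, adjusted p = 1.28e-04) and BNIP3, of mitophagy (0.52 ± 0.15, adjusted p = 0.00786), which with DMSO passed only when the 9 libraries were left out (0.66 ± 0.14).

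Genes whose pattern over the 10 group means was most like that of a member were named by Pearson's r of log2 CPM, as a description. They were PARP1, RASSF4 and SPINT1 for DEPP1 (r of 0.997 to 0.998), HLA-B, COL6A1 and APLP2 for PKP3, COL6A1, DEPP1 and ARRDC1 for SPINT1, LTBR, TSPAN3 and SF3B2 for HTRA1, PGM1, SULF2 and ZBED10P for HSD17B11, CHAF1A, PPM1D and LIN28B for KRT75, and YY1, SNHG29 and PDK1 for ELAVL2. Each member had 526 to 798 genes with r above 0.95, since the step between the genotypes sets r. Within the genotype where a member is high, r with these genes over 20 libraries was between -0.45 and 0.65. Among the 5 lower genes themselves, the 10 pairs had r between 0.00 and 0.72 in WT cells, highest for DEPP1 and HSD17B11, and between -0.54 and 0.69 in PARP1-KO cells. For DEPP1 and SPINT1 in PARP1-KO cells r was 0.64 but Spearman's rho 0.17, and both were lowest in untreated replicate 1. KRT75 and ELAVL2 had r of 0.06 in WT cells and of -0.04 in PARP1-KO cells.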

How the data were processed

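RNA sequencing was measured in 40 libraries of HEK293A cells, in 10 groups of 4. The authors made directional poly(A) libraries, mapped the 100 bp read pairs with STAR 2.7.8 on hg38, using Ensembl gene models, and deposited raw counts per gene, with no normalization; the strand counted is not given in the sources used here. From these counts, genes with at least 10 summed counts (28922 of 58395) received TMM library sizes and entered 1 quasi-likelihood model over all libraries (edgeR 4.0.16, R 4.3.3), with 1 term per group, Benjamini-Hochberg adjustment over all tested genes and a threshold of 0.01. Each SE is the absolute log2 fold change over the root of its F statistic. Depth ranged from 3455043 to 20379777 counts per library, and intervals (95%, exact binomial on summed counts) cover counting error only. Symbols, positions and exon lengths come from GENCODE 44 for hg38, which matched 57754 genes, and SOD2 of the FOXO list was not matched. Promoters come from RefSeq.

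The 7 genes and the lists were chosen with earlier results of these data known. Named beside the members are, for each list, the 2 largest log2 fold changes with DMSO among genes with a mean of at least 10 counts in the 8 DMSO libraries, genes that overlap a member, the nearest gene on each side with that mean over all libraries, and the 3 genes most like each member. Some other genes of the lists that passed, in the fit above or without the 9 libraries below, are named in addition, after their values were seen. Untreated cells were the comparator. Replicates of a group differed by more than sampling noise in all 60 pairs. Same-numbered libraries were paired between treated and untreated groups and between the genotypes. In 0 of these 13 comparisons did all 4 pairs correlate above 0.1, although 1 pair of WT DMSO and untreated libraries reached 0.32. Treated groups were not paired with each other, so deviations that they share were not examined. The procedure was tested on simulated data. Alternatives were RLE normalization, other filters, DESeq2 1.42.0, a replicate block, the name prefix as covariate, fewer libraries in the fit, other thresholds, DMSO as the comparator, omission of single libraries and, added after seeing the data, 9 libraries with fewer than 19000 detected genes left out.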

Additional observations from a re-analysis of the deposited data

Results flagged for a closer look

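In 6 of the 70 groups of 4 libraries, over 7 genes, 1 library stood apart from the other 3 by Dixon's 95% criterion, and chance flags about 1 group in 20. SPINT1 was at 82.9 CPM in WT DMSO replicate 3, against 38.0 to 43.3 in the others. SPINT1 was at 2.82 CPM in untreated PARP1-KO replicate 1, against 9.59 to 10.9. HTRA1 was at 16.7 CPM in PARP1-KO OL9-119 replicate 4, against 12.7 to 13.1. HSD17B11 was at 60.6 CPM in WT Tpc + OL9-119 replicate 2, against 26.3 to 28.5. ELAVL2 was at 0.157 CPM in WT DMSO replicate 4, which is 1 count, against 0 in the others. ELAVL2 was at 11.9 CPM in PARP1-KO Tpc replicate 2, against 16.24 to 17.05. The libraries of the SPINT1 values and of the HSD17B11 value were among the 9 with few detected genes, and the part of that in these values was not tested.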

How the results depend on the processing

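The 7 genes did not overlap between the genotypes in any treatment under RLE normalization or DESeq2 size factors. They also stayed apart without each library in turn and without the 9 libraries with few detected genes. That outcome was fixed, since ranges that lie apart over all libraries stay apart in any part of them. The genes were chosen for this separation, so neither it nor the sign of the genotype difference serves as a check. No member changed the sign of its genotype difference, nor of any of the 12 responses and differences of responses with an unadjusted p below 0.05, under the alternatives run. For the genotype difference, KRT75 with Tpc moved from 5.03 to 5.79 without the 9 libraries and to 5.82 without WT replicate 2 alone, KRT75 without treatment moved from 6.47 to 7.88 without WT replicate 1, and ELAVL2 with DMSO moved from 8.49 to 10.23 without WT replicate 4, which held the only count. For Tpc + OL9-119 in WT cells, 1 member in place of 0 was called with a threshold of 0.05 (HTRA1, adjusted p = 0.0296), with no filter (HTRA1) and with DMSO as comparator (ELAVL2). Leaving out 1 library at a time gave 0 calls of members throughout. KRT75 with DMSO against no treatment in WT cells moved from -2.14 to -0.72 without untreated replicate 1. With the replicate number as a block, 0 members were called in any response, and of the listed genes higher with DMSO 6 in place of 7 passed; the pairing changed no other count, with HTRA1 at -0.65 with Tpc + OL9-119 in WT cells. Of the listed genes with DMSO, 11 in place of 7 were higher with a threshold of 0.05, and 1 in place of 11 lower with a log2 fold change of at least 1, or 6 when only the libraries compared were fitted. Without treatment, 4 in place of 8 were higher and 2 in place of 11 lower with a log2 fold change of at least 1. The share of neighbours higher without treatment was 2.44% within 500 kb, 1.08% within 250 kb and 3.72% within 1000 kb. With Spearman's rho, 1 of the 21 genes most like a member was named again. Apart from the library named for each value, the causes were not tested. Depth limits KRT75 and ELAVL2 in WT cells, where a library held 0 to 24 counts.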
